A study of Mus musculus with 8 samples.

Results

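Gsx1, Gsx2, Pdx1, Cdx1, Cdx2, Mnx1, Meox1 and Meox2 are homeobox genes related to the Hox genes, and this account follows the histone mark H3K27me3 at these 8 genes in mouse neural stem cells (NSCs). Their regions were taken from a table of H3K27me3 ChIP-seq regions as every region that overlapped the body of a gene on GRCm38, extended by 5 kb on each side. This gave 7 regions of the 13585 in the table, since Pdx1 and Cdx2 lay in the same region. Each of the 8 gene starts lay inside its region, where 29.9% of 21728 protein-coding genes had their start in one, and extending the bodies by 0, 2.5 or 10 kb found the same 7 regions.

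The cells were primary female NSCs on the C57BL/6J background, grown from the cortex of E14.5 embryos and used at fewer than 10 passages. All carried a GFP tag on endogenous Smchd1, so the WT cells (Smchd1GFP+/+) also have the tagged allele, and the other genotype, Smchd1GFPMommeD43/MommeD43, was homozygous for the tagged MommeD43 missense variant of this chromatin silencing protein. Each genotype had 3 H3K27me3 ChIP libraries, 1 per cell line, and 1 whole cell extract (WCE) library, which was not analysed here. The table holds 1 value per region and genotype, the authors' mean over the libraries of log2 counts scaled to library size, so a difference is relative to the rest of the libraries. No difference below therefore has an SD, an n or a p-value, and a difference carried by a single cell line cannot be told apart from one shared by all 3. The error given with a difference is the smallest counting error that the recovered read numbers allow (Poisson counts spread evenly over 3 libraries). It covers counting error only and leaves out all variation between lines. The paper regards ChIP-seq as poorly suited to comparing levels of the mark. By immunofluorescence it reports modestly lower H3K27me3 in MommeD43 NSCs, on the inactive X chromosome and over the whole nucleus.

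The ParaHox genes Gsx, Pdx and Cdx descend from a cluster that is the evolutionary sister of the Hox cluster. In mammals Gsx1, Pdx1 and Cdx2 still lie together, while Gsx2 and Cdx1 stand at loci that lost the other members. Each encodes a homeodomain transcription factor with a restricted place of action: Gsx1 and Gsx2 pattern ventral forebrain progenitors, Pdx1 is needed for the pancreas, and Cdx1 and Cdx2 act in the posterior embryo and the intestine, where they regulate Hox genes. Mnx1 specifies motor neurons and acts in the pancreas, and Meox1 and Meox2 act in somites and their derivatives. H3K27me3 is placed by Polycomb repressive complex 2, which in embryonic and neural cells covers the CpG-rich starts of such developmental genes while they are silent.

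CG dinucleotides at the gene starts were examined first, because each region contains the start of its gene and CpG-rich sequence is a usual target of Polycomb complexes. RefSeq promoters on GRCm38.p6, which span 250 bases before to 50 bases after a start, were examined for 6 of the 8 genes. No promoter matched Meox1, and Cdx1 was left out of this step. The 6 promoters held 11 CG dinucleotides at Pdx1 (percentile 58.6) to 26 at Mnx1 (percentile 83.1), against a median of 7 over 32851 promoters. Their GC content ran from 55.3% (percentile 57.56) to 66.3% (percentile 84.35), against a median of 52.7%. The 250 bases before the start are shown for the genes at the ends of the ParaHox cluster, Gsx1 and Cdx2, and for Gsx2 and Meox2, whose regions differed most between the genotypes. Letters are in lower case, 5′ to 3′ on the strand of the gene, with CG dinucleotides in capitals.
Gsx1, chr5:147188446-147188695, plus strand: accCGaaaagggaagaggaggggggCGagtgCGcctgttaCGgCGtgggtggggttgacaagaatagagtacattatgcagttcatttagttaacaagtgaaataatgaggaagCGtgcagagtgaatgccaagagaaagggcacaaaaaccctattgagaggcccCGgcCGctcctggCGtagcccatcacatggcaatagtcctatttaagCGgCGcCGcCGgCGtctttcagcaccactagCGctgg
Cdx2, chr5:147307250-147307499, minus strand: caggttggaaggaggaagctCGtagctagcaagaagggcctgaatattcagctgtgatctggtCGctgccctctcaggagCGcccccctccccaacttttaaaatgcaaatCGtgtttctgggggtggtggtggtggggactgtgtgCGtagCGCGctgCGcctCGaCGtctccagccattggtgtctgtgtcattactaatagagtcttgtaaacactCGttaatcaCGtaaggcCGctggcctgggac
Gsx2, chr5:75075351-75075600, plus strand: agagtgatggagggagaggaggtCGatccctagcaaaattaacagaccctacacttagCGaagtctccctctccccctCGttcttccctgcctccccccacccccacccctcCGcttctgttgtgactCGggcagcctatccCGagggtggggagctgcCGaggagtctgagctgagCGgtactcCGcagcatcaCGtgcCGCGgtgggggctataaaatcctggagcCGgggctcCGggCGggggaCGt
Meox2, chr12:37108290-37108539, plus strand: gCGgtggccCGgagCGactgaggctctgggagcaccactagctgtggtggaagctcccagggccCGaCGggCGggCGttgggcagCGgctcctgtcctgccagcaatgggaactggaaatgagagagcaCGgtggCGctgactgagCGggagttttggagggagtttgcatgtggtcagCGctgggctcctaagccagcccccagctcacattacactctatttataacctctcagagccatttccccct

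The sequences of Gsx1 and Gsx2 held 15 and 16 CG dinucleotides, and those of Cdx2 and Meox2 held 13 and 12. The homeodomain core motif TAATTA, searched on both strands, had no match in the 6 promoters, and 5.29% of all promoters held one. The Cdx-type motif TTTATNG had 1 match, on the minus strand of the Gsx2 promoter, against 10.9% of all promoters. A match or its absence describes these letters only.

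In the values as deposited, H3K27me3 was higher in MommeD43 than in WT at all 7 regions, with the largest differences at Gsx2 and Meox2. The difference (MommeD43 minus WT, log2) ran from 0.14 at Cdx1 to 1.89 at Gsx2, with a median of 0.47. The direction at Cdx1 and Mnx1 depended on the scaling. With the totals of the regions set equal, or with the trend of the difference with abundance removed, 5 of the 7 regions were higher and the medians were 0.23 and 0.21. With the trend with GC content removed the median was 0.26, Cdx1 was below 0 and Meox2, at 2.07, lay above Gsx2, at 1.79, and with read density removed as well the median was 0.10. A difference above 0 was the common case in this table: 60.2% of all 13585 regions had one, and the median over all regions was 0.11. All 7 differences lay above the 95% counting interval, which 40.9% of all regions did, but that interval narrows with depth and the median WT read number was 1429 per library in the 7 regions and 100 in all regions. Among the 4422 autosomal regions that hold a gene start, as the 7 do, 68.0% were higher in MommeD43, 51.3% lay above the counting interval and the median difference was 0.17. At Gsx2 and Meox2 the difference reached 1, or a doubling, which 6.09% of all regions, 2.28% of the 11707 autosomal regions and 2.40% of those with a gene start did. No member region was lower by 1, which 412 of all 13585 regions and 343 of the 11707 autosomal regions were. All member regions are autosomal, and the autosomal median was 0.08.

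Levels are compared between regions only per kilobase, because a longer region collects more reads. Per kilobase of region, the WT density of normalized counts was 253 at Mnx1, 219 at Pdx1/Cdx2, 119 at Gsx1, 102 at Cdx1, 77.9 at Gsx2, 45.0 at Meox1 and 30.8 at Meox2. The autosomal median in WT was 36.0, so the Meox2 region was the only one of the 7 below it. In MommeD43 the densities were 363 at Pdx1/Cdx2, 295 at Mnx1, 288 at Gsx2, 165 at Gsx1, 113 at Cdx1, 73.9 at Meox2 and 56.1 at Meox1. Gsx2 thus ranked below Gsx1 and Cdx1 in WT and above both in MommeD43, and Meox2 ranked below Meox1 in WT and above it in MommeD43. The closest neighbours in these orders were Mnx1 and Gsx2 in MommeD43, which differed by 0.036 on the log2 scale with a counting error of 0.015. Every neighbouring pair differed by more than its 95% counting interval, but whether it differed by more than the spread between lines was not tested.

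**Figure D1:**
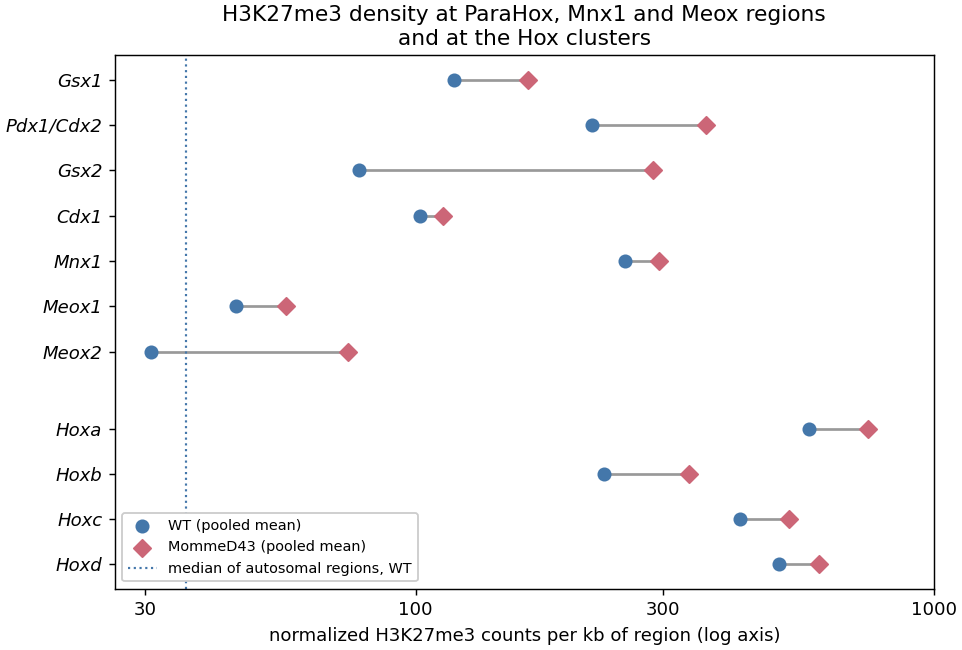
Normalized H3K27me3 counts per kilobase (log axis) in each member region and in the regions of the 4 Hox clusters, with WT as circles and MommeD43 as diamonds, each a pooled mean without replicate error. The dotted line is the WT median of autosomal regions (36.0); the longest joining lines are those of Gsx2 and Meox2, and the Hoxa, Hoxc and Hoxd clusters lie to the right of every member.

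The ParaHox cluster spans 118575 bp, from the start of Gsx1 to the start of Cdx2 on chromosome 5, and was covered almost without a break by a pair of neighbouring regions that were 1450 bp apart. The first, chr5:147174201-147213550, is 39350 bp long and contains the whole of Gsx1 (chr5:147188696-147190947, plus strand), the start of which lies 14495 bp from the left edge. Its value was 12.19 in WT and 12.66 in MommeD43, a difference of 0.47 with a counting error of 0.03, or 1.39-fold. Gsx1 itself makes up 5.72% of the region, and no other protein-coding gene overlaps it.

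The second, chr5:147215001-147326500, is 111500 bp long and contains all of Pdx1 (chr5:147269959-147275848, plus strand) and Cdx2 (chr5:147300805-147307270, minus strand), together with Urad, a gene of urate breakdown. Its value went from 14.58 in WT to 15.30 in MommeD43, higher by 0.73 with a counting error of 0.01, or 1.66-fold. Pdx1 and Cdx2 share this value and cannot be separated in it, and the body of Pdx1 makes up 5.28% of the region. The Gsx1 difference was 0.26 smaller than that of Pdx1/Cdx2, with a counting error of 0.03 for this contrast, so the parts of the cluster differed from each other by more than counting error.

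The Pdx1/Cdx2 region stood at percentile 99.1 of autosomal regions by WT density and at percentile 94.6 by difference, and the Gsx1 region at percentiles 96.9 and 85.0. Besides Gsx1, 8 regions lay within 500 kb of the Pdx1/Cdx2 region. As deposited all 8 were higher in MommeD43, with a median of 0.49 and a range of 0.13 to 0.63, and 7 of them lay above the counting interval. With the GC trend removed 7 of the 8 were higher, with a median of 0.33, and with equal totals 7 were. Flt3, the receptor tyrosine kinase gene that borders the cluster, had its start in a region with a difference of 0.59 and a counting error of 0.08, and at its relative Flt1 the difference was 0.54 with an error of 0.03.

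Gsx2, which acts in progenitors of the lateral ganglionic eminence, had the largest difference. Its region, chr5:75060501-75097450, is 36950 bp long, holds Gsx2 (chr5:75075601-75077893, plus strand) and no other protein-coding gene, and lies 72.1 Mb from the ParaHox cluster on the same chromosome. The value was 11.49 in WT and 13.38 in MommeD43. The difference of 1.89 has a counting error of 0.03 and is 3.70-fold, resting on geometric means of 880 reads per library in WT and 4038 in MommeD43. It ranked 30 among the 11707 autosomal regions. Against its paralogue Gsx1, the Gsx2 difference was larger by 1.41.

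The next region to the right, chr5:75137001-75166300, had nearly the same difference. It holds the start of Pdgfra, the PDGF receptor gene that marks oligodendrocyte precursors, and its value went from 10.82 to 12.74, a difference of 1.92 with a counting error of 0.04. The other 5 regions within 500 kb of Gsx2 had differences between -0.13 and 0.72, and the one at the start of Kit, 472300 bp away, had 0.39, or 0.17 with the GC trend removed. The large difference was thus found in the Gsx2 and Pdgfra regions and not in the other regions of this window. Farther to the right, the start of Kdr lay in a region with a difference of 1.11 and a counting error of 0.07.

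Cdx1 had the smallest difference. Its region, chr18:60846651-61082800, is the longest of the 7 at 236150 bp. It contains Cdx1 (chr18:61018862-61036199, minus strand), which makes up 7.34% of its length, and the starts of Tcof1, Arsi, Camk2a, Slc6a7 and Pdgfrb, so its value is not specific to Cdx1. The value was 14.56 in WT and 14.70 in MommeD43, a difference of 0.14 with a counting error of 0.01, at percentile 57.0 of autosomal regions. Of 18 other regions within 500 kb, 12 were higher in MommeD43, with a median of 0.07, and with the GC trend removed 2 were, with a median of -0.12. The neighbouring regions beside Csf1r, the receptor gene next to Pdgfrb, differed by 0.04 and -0.01, within their counting errors of 0.09 and 0.06.

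Mnx1, the motor neuron homeobox gene, lay in chr5:29455101-29570050, a region of 114950 bp that also holds the start of Ube3c, a ubiquitin ligase gene, and overlaps Nom1. Mnx1 occupies chr5:29473034-29478470 on the minus strand, 4.73% of the region. The value was 14.83 in WT and 15.05 in MommeD43, a difference of 0.22 with a counting error of 0.01. It had the highest WT density of the 7 regions, at percentile 99.3 of autosomal regions. Of the 4 other regions within 500 kb, 3 were lower in MommeD43, with a median of -0.22, or -0.06 with the GC trend removed.

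The Meox genes had the weakest mark and unequal differences. Meox1, at chr11:101877510-101894374 on the minus strand, had 84.9% of its body in chr11:101880051-101906950, where the value was 10.24 in WT and 10.56 in MommeD43. The difference was 0.32 with a counting error of 0.06. Of 16 other regions within 500 kb, 14 were higher in MommeD43, with a median of 0.23, and Meox1 exceeded that median by 0.09. Of the 16, 7 were higher with the GC trend removed and their median was -0.02.

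Meox2, at chr12:37108540-37179534 on the plus strand, was covered only around its start: the region chr12:37103301-37114300 is 11000 bp long and holds 8.11% of the gene body. Its value was 8.40 in WT and 9.67 in MommeD43, a difference of 1.26 with a counting error of 0.09. The read numbers behind it were the lowest of the 7, with geometric means of 104 per library in WT and 309 in MommeD43. By density it stood at percentile 32.9 of autosomal regions in WT and at percentile 88.1 in MommeD43. The only other region within 500 kb, 382750 bp to the left and without a gene start, differed in the other direction, by -1.05 with a counting error of 0.19, or by -0.26 with the GC trend removed.

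**Figure D2:**
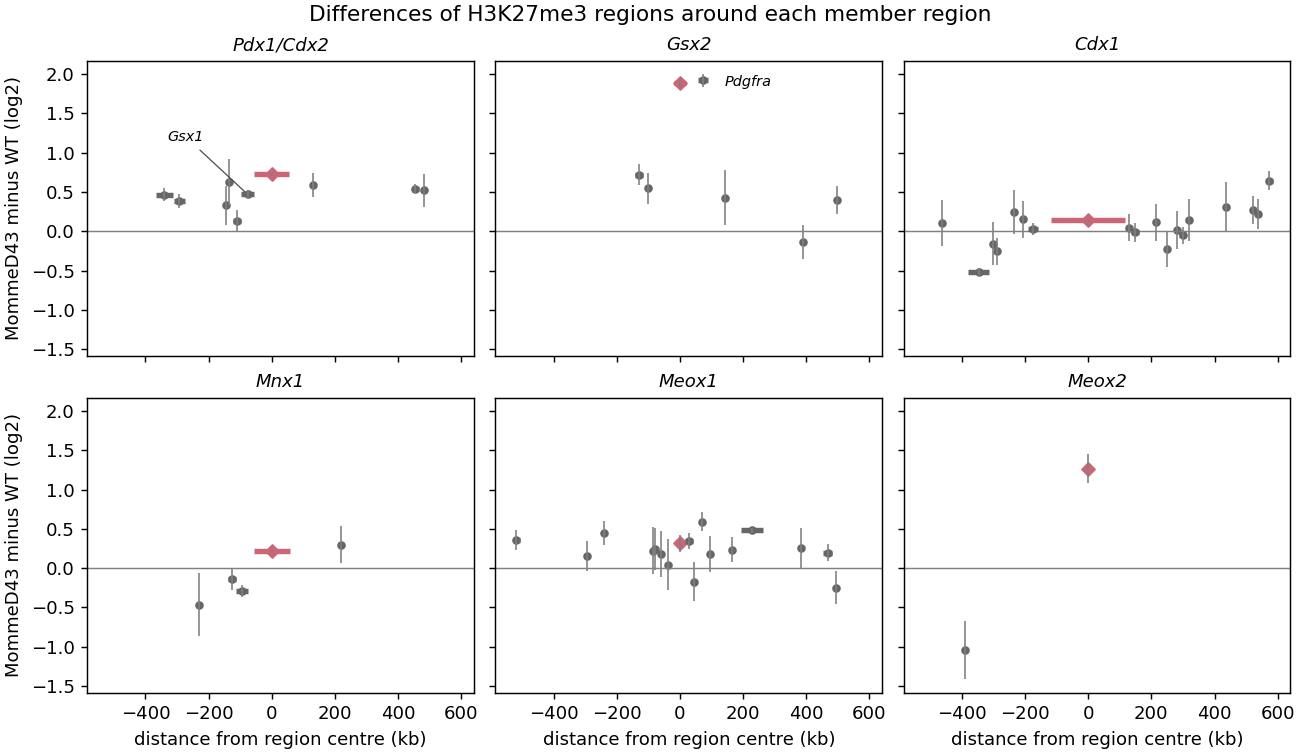
Difference (MommeD43 minus WT, log2) of all regions within 500 kb of each member region except Gsx1, plotted by the distance of their centre from that of the member (kb). Diamonds are the members that name the panels and circles the other regions, with Gsx1 as a labelled circle in the Pdx1/Cdx2 panel. Horizontal bars give region length and vertical bars the 95% counting interval. Gsx2 and Pdgfra, at 1.89 and 1.92, stand above their neighbours, and the regions around Pdx1/Cdx2 lie above 0 in these values as deposited, the lowest at 0.13 with an interval that reaches 0.

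The Hoxa, Hoxc and Hoxd clusters, each covered by a single region, had a higher density of the mark than any of the 7 regions in both genotypes, and all 4 Hox clusters differed less between genotypes than Gsx2 or Meox2. Their WT densities were 575 for Hoxa, 502 for Hoxd, 422 for Hoxc and 231 for Hoxb. Mnx1, at 253, thus lay above the Hoxb region and Pdx1/Cdx2, at 219, below it. All the Hox regions also hold other genes, and the Hoxb region is the longest, at 728900 bp. It also overlaps Ube2z, Atp5g1, Calcoco2, Ttll6, Skap1, Snx11 and Cbx1, so its density is not specific to the Hoxb genes. In MommeD43 the Hoxb density was 337, with Pdx1/Cdx2, at 363, above it and Mnx1, at 295, below it. The 4 Hox regions held 4.11% of the normalized counts of all regions in WT and 4.53% in MommeD43, and the 7 member regions held 0.4998% and 0.5871%. The Hox differences ran from 0.26 to 0.54, with a median of 0.35, and 0 of 4 reached 1. The member median exceeded the Hox median by 0.12. This excess depended on the processing: with the trend of the difference with GC content removed it was -0.046. The Gsx2 difference exceeded the highest Hox difference, that of Hoxb, by 1.34, whereas Mnx1 and Cdx1 lay below the lowest, that of Hoxd. With the GC trend removed Cdx1 still lay below every Hox region, but Mnx1, at 0.24, lay above Hoxc, at 0.22.

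Base composition moved with the difference across the table. Over the 11707 autosomal regions, which are not independent, Spearman's rho between difference and GC content was 0.583. The Cdx1 and Meox1 regions were GC-rich, at 50.7% and 50.4%, the Gsx1, Pdx1/Cdx2, Gsx2 and Mnx1 regions lay between 44.8% and 48.4%, and the Meox2 region had 37.9%, at percentile 2.23 of autosomal regions. The part of GC content in single differences was not tested, but they can be set beside the values with the GC trend removed. These were 1.79 for Gsx2, 2.07 for Meox2, 0.56 for Pdx1/Cdx2, 0.26 for Gsx1, 0.24 for Mnx1, 0.018 for Meox1 and -0.17 for Cdx1. With the GC trend removed, Meox2 thus lay above Gsx2 and Cdx1 below 0. CG dinucleotides ranged from 10.8 per kilobase of region at Mnx1 to 17.2 at Gsx1, against an autosomal median of 12.3.

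**Figure D3:**
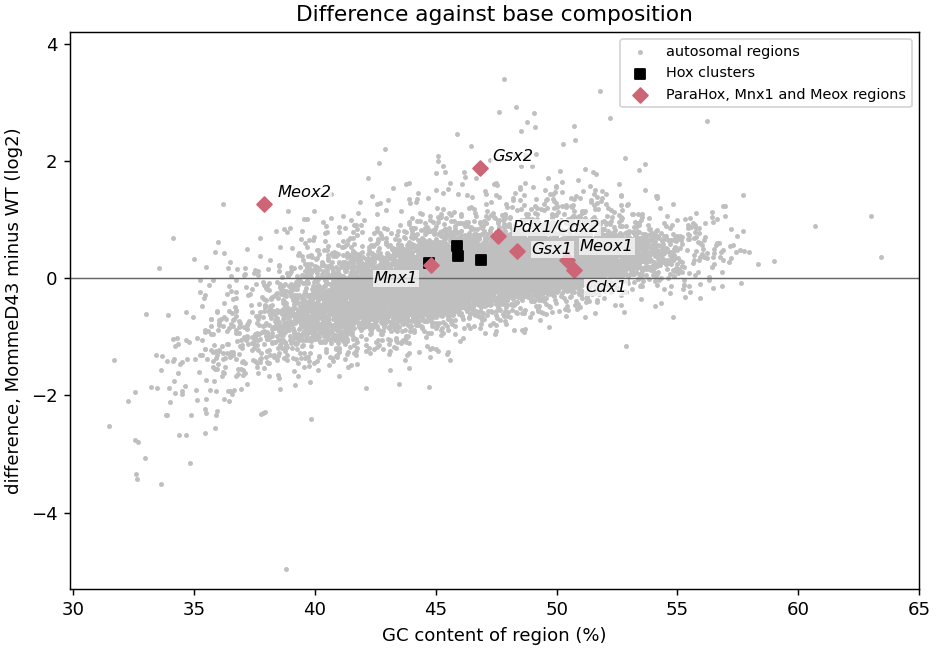
Difference (MommeD43 minus WT, log2) against GC content (%) of each autosomal region (grey points), with member regions as diamonds and Hox clusters as squares. Meox2 lies above nearly all regions near its GC content (37.9%), and Gsx2 above nearly all near 46.8%, while the other members lie among the autosomal regions.

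The direction at Gsx2 and Meox2 held under all 6 other processings of the pooled values. Of these, a pseudocount cannot change a sign, and equal totals and an autosomal median of 0 each shift every difference by a constant. Gsx2 ranged from 1.62 to 1.88 and Meox2 from 1.02 to 2.11. Pdx1/Cdx2 stayed between 0.33 and 0.73 and Gsx1 between 0.10 and 0.47, and Meox1 stayed above 0, between 0.018 and 0.31. Cdx1 ranged from -0.30 to 0.14 and Mnx1 from -0.087 to 0.24, so neither can be called higher or lower without a choice of scaling.

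**Figure D4:**
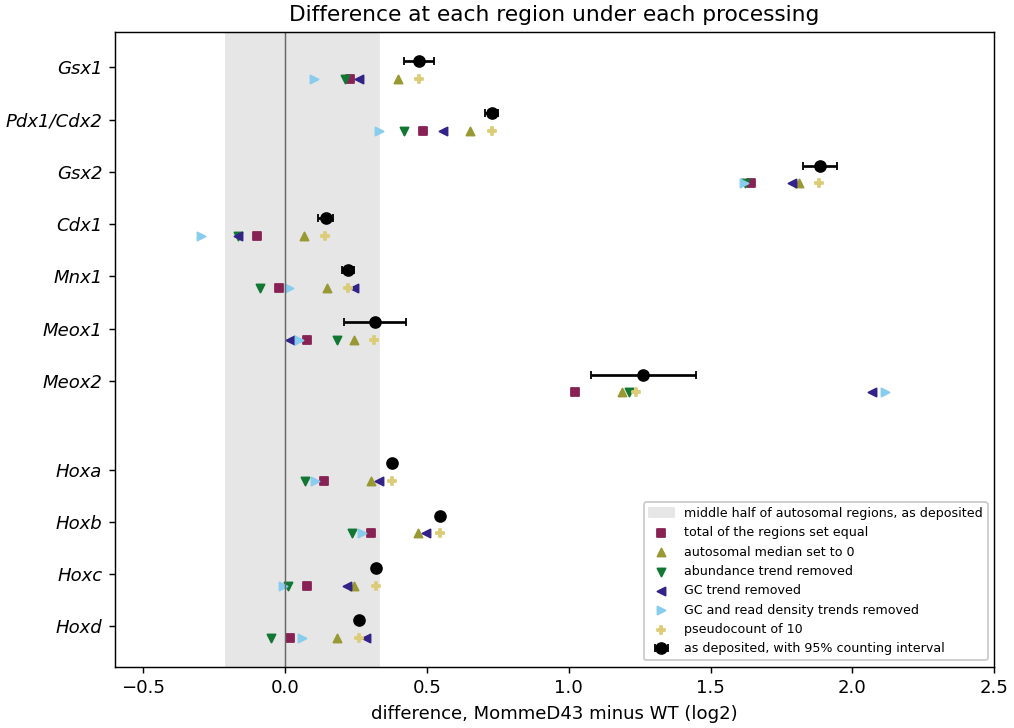
Difference (MommeD43 minus WT, log2) at each member region and Hox cluster. Black circles are the values as deposited with their 95% counting interval, coloured symbols the values under each other processing, and the grey band the quartile range of autosomal regions (-0.21 to 0.33); Gsx2 and Meox2 stay above 1 under each of them, and Cdx1 lies on either side of 0.

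Other genes of the same class and the neighbours of the ParaHox loci were set beside the members. The other Hox-related genes Cdx4, Evx1, Evx2, Gbx1, Gbx2, En1 and En2 each had their start in a region, and as deposited all 7 regions were higher in MommeD43, with a median difference of 0.35, beside 60.2% of all regions that were higher. Evx1 and Evx2 lie inside the Hoxa and Hoxd regions. Gbx2, which positions the midbrain-hindbrain boundary, had 1.02 with a counting error of 0.01 and was the only 1 of these to reach 1, but had 0.86 with the GC trend removed. The midbrain genes En1 and En2 had 0.35 and 0.56, Gbx1 had 0.21, and Cdx4, the X-linked Cdx gene, had 0.13. With the GC trend removed En1 had 0.17, En2 0.38, Gbx1 -0.11 and Cdx4 0.46, and 6 of the 7 regions were higher, with a median of 0.33. Cdx4 has another baseline, since 75.7% of regions on the X chromosome had a difference above 0, and its GC trend was one fitted on autosomal regions. Of 13 neighbours of the ParaHox genes and their duplicated loci, 9 had a region, beside 43.3% of all protein-coding genes. Pan3, Chic2, Lnx1 and Fip1l1 had none. The 10 regions of these neighbours, 2 of which are the Pdx1/Cdx2 and Cdx1 regions themselves, had a median of 0.47, with 9 higher and 1 lower, and 2 reached 1 (Pdgfra and Kdr), beside 6.09% of all and 2.28% of autosomal regions. The X-linked Cdx4 region is among the 10, as that of Chic1. Of the 10, 7 were higher with the GC trend removed, with a median of 0.42, and 2 reached 1, beside 55.9% of all regions above 0 and 1.84% of autosomal regions at or above 1.

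By density in the pooled columns, the autosomal gene-start regions most like each member were found by Euclidean distance on the log2 scale, over the WT and MommeD43 columns. For Pdx1/Cdx2 they were the regions of Nkx6-1, at a distance of 0.080, of Wnt1 and Wnt10b, at 0.086, and of Barhl2, at 0.095. For Gsx2 no region came as near: Nr5a2 was at 0.32, Pdgfra at 0.45 and Tfap2c at 0.52. Meox2 was closest to Pax6, at 0.12, and Mnx1 to Foxb1, at 0.028. Gsx1 was closest to the region of Ovol1 and Ap5b1, at 0.027, and Meox1 to that of Gng8 and Ptgir, at 0.0025.

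Marker genes give a limited check of the cell type, since H3K27me3 covers silent rather than expressed genes. Of 12 NSC markers, Sox2, Vim, Fabp7, Notch1 and Olig2 had no region within 5 kb, and 5 others, Nes, Pax6, Hes1, Hes5 and Msi1, had their start in one. The WT densities at these 5 starts ran from 33.4 to 78.7 normalized counts per kilobase. The differences there were 0.56 at Nes, 1.18 at Pax6, 0.01 at Hes1, 0.35 at Hes5 and -0.08 at Msi1. With the GC trend removed they were 0.25, 0.84, -0.19, 0.03 and -0.40, in the same order. Of the genes that mark tissues in which the members act, a region was found at 4 of 5 pancreas, 2 of 4 intestine, 4 of 4 motor neuron and 4 of 5 paraxial mesoderm genes, and at 43.3% of all protein-coding genes. Among these, the regions of the intestinal stem cell gene Lgr5 had the largest differences, 1.41 and 1.33 as deposited, and these were 1.64 and 1.49 with the GC trend removed. In the pancreas list Nkx6-1 had 0.83, Neurog3 0.80 and Ptf1a 0.12, and the regions found for Ins2, which overlap its long annotated body but end 58181 and 7481 bp from its start, had 0.21 and -0.61. In the mesoderm list the lowest value was -0.70, in a region of Pax3 that does not hold its start, while the region at its start had 0.35. With the GC trend removed the values were 0.74 for Nkx6-1, 0.50 for Neurog3, 0.17 for Ptf1a, -0.08 and -0.24 for the Ins2 regions, and -0.36 and 0.48 for the Pax3 regions. Median differences as deposited were 0.07 over the 7 NSC marker regions, 0.21 over 5 pancreas regions, 1.33 over 3 intestine regions, which are the 2 of Lgr5 and that of Krt20 at 0.25, 0.49 over 5 motor neuron regions and 0.12 over 5 mesoderm regions. Removal of the GC trend made these medians 0.01, 0.17, 1.49, 0.55 and -0.09, in the same order. The NSC medians, 0.07 and 0.01, are the values of the Slc1a3 region, which lies 81614 bp from the start of that gene.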

How the data were processed

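H3K27me3 ChIP-seq was made from 6 ChIP and 2 WCE libraries. Per the study's methods and the submitters' processing notes, the authors trimmed reads with Trim Galore 0.4.4, aligned them with Bowtie2 2.3.4.1 to GRCm38.p6, called peaks per genotype on merged replicates against WCE and joined widened peaks that lay close together. The deposited values are log2 read counts per region, scaled to library size and averaged per genotype by the authors, with no correction for length or WCE. Fragmentation is given as micrococcal nuclease in the labels and as shearing in the methods. In 8582 regions the end column passes the end in the region's name; the columns were used, since value followed their length (r = 0.927 over regions, against 0.468 for the named length).

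Reads per library were recovered from the values: among regions with a product of 3 counts under 30000, 1138 of 1139 WT and 681 of 684 MommeD43 products came within 0.1 of a whole number. Their geometric mean gave the counting error. Genes came from GENCODE mouse release 21, GC content from the GRCm38 sequence. The named genes were the members, the 4 Hox regions, fixed lists of related, neighbouring and marker genes, and the 3 regions most like each member; members and lists were chosen with earlier results of these data known. Pooled columns allow no test between genotypes. Steps were tested on simulated data. Alternatives were other scalings, removal of abundance, GC or read density trends (40 bins, autosomal regions), a pseudocount of 10, other flanks and a mean of 50 reads. Protein sequences were not used here. The work was done with pandas 2.3.3, numpy 2.4.6, pysam 0.24.0 and scipy 1.17.1 under Python 3.11.15, and figures were drawn with matplotlib 3.10.9.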

Additional observations from a re-analysis of the deposited data

How the results depend on the processing

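No paired analysis was possible because each genotype is 1 pooled mean; leaving out a replicate and a replicate block were planned and not run for the same reason. Equal totals of the regions lowered the median member difference from 0.47 to 0.23, and an autosomal median of 0 gave 0.40. Removal of the abundance trend gave 0.21, of the GC trend 0.26, and of the GC trend together with read density 0.10. A pseudocount of 10 left it within its counting interval, and other flanks, a mean count of at least 50 and regions holding a member start left the same 7 regions. With equal totals 5 of the 7 regions were higher in MommeD43, where 37.1% of all regions were; after removal of abundance it was also 5, beside 54.0%, and after either GC removal 6, beside 55.9%. The excess over the Hox median, 0.12, was -0.046 after GC removal and 0.020 once density was removed as well. Cdx1 was -0.099 with equal totals, -0.17 after removal of abundance, -0.17 after that of GC, and -0.30 after that of GC plus density. Mnx1 was -0.020 with equal totals and -0.087 after removal of abundance, where Hoxd was -0.049, and Hoxc was -0.0085 after removal of GC plus density. Equal totals lower every difference by the same amount; for the trends the cause was not tested. Over the 7 member regions and 6 alternatives, 11 values kept to the counting interval, 25 left it without a change of sign and 6 reversed. The pseudocount values of all member regions are among the 11. Depth limits Meox2 most, with 104 reads per WT library.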
